A study of Mus musculus with 4 samples.

Results

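The proteasome is the cylinder-shaped protease that degrades ubiquitin-tagged proteins, and the genes of its subunits were examined here for binding of Tfcp2l1 in mouse embryonic stem cells. Tfcp2l1, a DNA-binding protein of the CP2 family, is a target of LIF signalling that helps to maintain naive pluripotency. The genes were chosen by name: every protein-coding RefSeq gene (GRCm38.p6) whose symbol starts with Psma, Psmb, Psmc, Psmd, Psme, Psmf or Psmg followed by a digit. There were 51 such members among 21887 protein-coding genes, spread over 16 chromosomes. They comprised 15 core, 20 regulatory, 7 immune and 7 assembly genes. The other 2 members, Psmc3ip and Psme3ip1, carry such a name because their proteins bind a subunit, and are not proteasome genes.

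Wild-type cells grew in 2i medium with 1000 units/mL LIF, 3 µM CHIR99021, which inhibits GSK3, and 1 µM PD0325901, which inhibits MEK. Binding was measured by chromatin immunoprecipitation and sequencing (ChIP-seq) with a custom antibody in 2 repeats, each with 1 ChIP library and 1 input library of unprecipitated chromatin. Both kinds of library came from the same untreated wild-type cells, and no cells lacking Tfcp2l1 were analysed here. The ChIP libraries held 19353473 and 22555373 filtered tags, the inputs 18446758 and 23825930, and the authors called 57614 and 51610 peaks. The labels do not state whether the repeats were separate cultures, and differences between them may therefore be technical. Peak lists hold no expression values, so the cell type could not be checked against marker genes.

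The 20S core of the proteasome is a stack of rings of alpha subunits, which gate the entry pore, and beta subunits, some of which carry the proteolytic sites. A 19S regulatory particle caps it: the base has ATPases that unfold substrates, and the lid holds the deubiquitinase that removes the ubiquitin chain. In cells exposed to interferon, Psmb8, Psmb9 and Psmb10 take the place of the catalytic subunits Psmb5, Psmb6 and Psmb7, which changes the peptides made for class I antigen presentation. Embryonic stem cells are known for high proteasome activity, and the factor Nfe2l1 drives subunit genes together when the proteasome is inhibited.

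A peak of repeat 1 that overlapped a peak of repeat 2 by at least 1 bp was counted as shared. A gene was counted as having a peak when the summit of repeat 1 lay inside it or within 10 kb of its ends. Fold enrichment is the authors' own value for a peak: tags at its summit over the local background estimated by MACS. Pairs of values are repeat 1 and then repeat 2 throughout. Each repeat is 1 ChIP library and genes are not replicates, so no test was run. Counts and medians are given beside the same over all protein-coding genes where that was computed. Counts of promoters and motifs are given beside all promoter entries, which are not limited to protein-coding genes.

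Promoter sequences of 5 members are shown because the summit of a shared peak lay inside them, so that they are the members' start-site DNA on which the enrichment peaked. They come from RefSeq in build GRCm38.p6, run 5′ to 3′ on the gene's strand from 250 bp before to 50 bp after the start site, and are in lower case. Capitals mark 3 motifs searched on both strands. The first is the paired CP2 half-site, CCAG and CCNG with a gap of 6 bases, which Tfcp2l1 and its relatives are known to bind. The second is the antioxidant response element, TGACNNNGC, the site type of Nfe2l1 and Nfe2l2. The third is the CCAAT box.
Psmd8, chr7:29180624-29180923, minus strand: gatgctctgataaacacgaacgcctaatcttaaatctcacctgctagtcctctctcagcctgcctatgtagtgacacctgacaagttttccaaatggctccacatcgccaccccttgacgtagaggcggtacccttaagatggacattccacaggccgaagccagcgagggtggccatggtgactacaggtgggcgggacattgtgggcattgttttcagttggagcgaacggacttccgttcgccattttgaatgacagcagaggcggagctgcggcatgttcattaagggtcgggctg
Psmb9, chr17:34187281-34187580, minus strand: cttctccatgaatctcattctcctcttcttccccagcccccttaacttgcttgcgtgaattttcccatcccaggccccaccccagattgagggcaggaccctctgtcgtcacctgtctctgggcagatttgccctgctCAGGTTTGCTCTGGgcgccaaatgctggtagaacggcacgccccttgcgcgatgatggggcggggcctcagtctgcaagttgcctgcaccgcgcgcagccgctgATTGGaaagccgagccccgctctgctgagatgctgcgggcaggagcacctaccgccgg
Psma2, chr13:14612992-14613291, plus strand: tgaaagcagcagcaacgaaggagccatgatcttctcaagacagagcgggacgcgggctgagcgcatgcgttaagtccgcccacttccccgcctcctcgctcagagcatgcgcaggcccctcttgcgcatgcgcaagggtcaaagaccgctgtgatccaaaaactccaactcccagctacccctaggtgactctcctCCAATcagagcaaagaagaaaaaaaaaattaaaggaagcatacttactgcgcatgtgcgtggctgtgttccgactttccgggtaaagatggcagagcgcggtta
Psma5, chr3:108256676-108256975, plus strand: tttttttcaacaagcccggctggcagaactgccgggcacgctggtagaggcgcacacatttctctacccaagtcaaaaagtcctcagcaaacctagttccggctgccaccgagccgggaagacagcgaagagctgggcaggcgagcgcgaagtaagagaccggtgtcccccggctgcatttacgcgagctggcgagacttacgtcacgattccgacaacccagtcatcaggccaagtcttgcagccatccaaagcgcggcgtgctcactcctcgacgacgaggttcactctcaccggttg
Psmb5, chr14:54617946-54618245, minus strand: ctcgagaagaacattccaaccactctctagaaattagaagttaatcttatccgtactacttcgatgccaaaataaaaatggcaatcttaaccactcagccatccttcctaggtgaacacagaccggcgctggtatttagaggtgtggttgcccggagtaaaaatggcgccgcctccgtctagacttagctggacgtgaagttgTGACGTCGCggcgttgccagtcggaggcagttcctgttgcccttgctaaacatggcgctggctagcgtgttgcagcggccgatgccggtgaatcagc
In the Psmb9 promoter the capitals are a CP2 pair on the reverse strand, which starts 112 bp upstream of the start site, and a reversed CCAAT box. In the Psmb5 promoter they are an antioxidant response element 47 bp upstream, and in the Psma2 promoter a CCAAT box 54 bp upstream. The Psma5 and Psmd8 windows held none of the 3. The promoter of Psme3ip1 also held a shared summit and is not printed because that gene is no proteasome gene.

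Of the 51 members, 41 had a shared peak (80.4%), against 64.5% of all protein-coding genes. Close to the genes the share was near that of all genes: 27 members (52.9%) had a shared peak inside the gene or within 1 kb, against 51.5% of all genes. A member was the nearest gene of a shared peak in 30 cases (58.8%), against 55.4% of all genes. With the 2 genes that are no proteasome genes left out, 40 of 49 had a shared peak (81.6%). Only Psmd10 lies on the X chromosome, where 29.5% of genes had a shared peak. On the autosomes the share was 82.0% of 50 members and 66.9% of all genes. The members are short, with a median length of 11.6 kb against 17.2 kb, and 67.1% of genes within the members' range of lengths had a shared peak. That range held 17991 of the 21887 genes, with a median length of 16.6 kb. It therefore does not match the members in length, and the part of length was not tested.

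A shared peak was more frequent at the members than over all genes in the 10 kb window, but not clearly so nearer the genes. Within 5 kb, 32 of 51 members had one, against 58.6% of all genes. The members' peaks were mostly of moderate strength. The strongest shared peak of a member, ranked by the mean of its ranks in the 2 lists, had a median enrichment of 22.6-fold and 13.8-fold, against 27.1-fold and 19.2-fold over all genes with a shared peak. Counting only peaks of at least 10-fold in both repeats, 24 of 51 members had one, against 50.0% of all genes. The strongest shared peak passed 20-fold in both repeats in 13 of the 41 members (31.7%), against 46.7% of all genes with a shared peak. A peak in the top 10% of all shared peaks in both repeats, at least 51.2-fold and 36.1-fold, lay near 6 members (11.8%), against 12.5% of all genes. By nearest gene, such a peak was counted for only 2 of 51 members, against 9.71% of all genes. The 6 members with such a peak within 10 kb were Psmd13, Psmg3, Psmd8, Psmb10, Psmb9 and Psme3ip1, and none was a core gene.

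**Figure D1:**
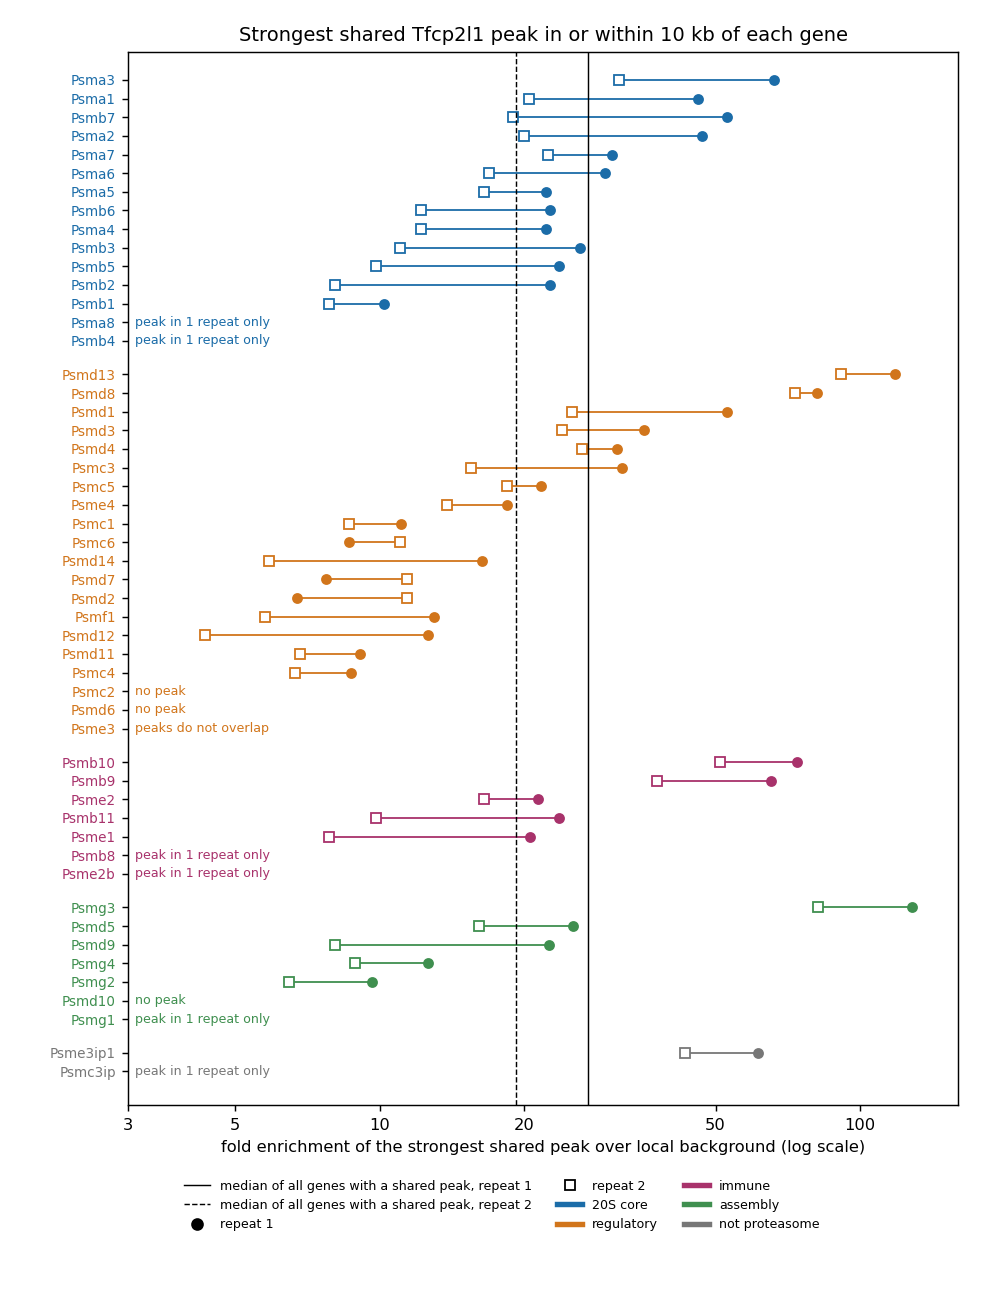
Fold enrichment of the strongest shared Tfcp2l1 peak inside or within 10 kb of each of the 51 genes, by class, on a log axis; filled circles are repeat 1, open squares repeat 2, and the vertical lines are the medians over all protein-coding genes with a shared peak (27.1 and 19.2). Psmg3, Psmd13, Psmd8, Psmb10, Psmb9 and Psme3ip1 stand at the right, and 10 genes have no shared peak.

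A shared peak lay within 10 kb of 13 of the 15 core genes (86.7%), against 64.5% of all genes. By nearest gene the count was 10 of 15 (66.7%), against 55.4% of all genes. Their strongest peaks had medians of 26.1-fold and 16.5-fold, against 27.1-fold and 19.2-fold over all genes with a shared peak, and a range of 10.2 to 66.2 and 7.85 to 31.4. Within 1 kb the count was 11 of 15 (73.3%), against 51.5% of all genes. Among the 8 alpha genes, 7 had a shared peak and the median was 30.4-fold and 20.01-fold. Among the 7 beta genes, 6 had one and the median was 23.1-fold and 10.4-fold, and the ranges of both rings overlapped in both repeats.

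Psma3, the gene of subunit alpha7, had the strongest core site, 66.2-fold and 31.4-fold, on chromosome 12 (70974308 to 70975594). The peak held 194 tags (95% Poisson interval 168 to 223, which covers counting error only) and 135 tags (113 to 160). Its summit lay 407 bp downstream of the annotated start site. At Psma6, which encodes alpha1, the strongest shared peak was 29.5-fold and 16.9-fold with its summit 423 bp upstream of the start site. A second Psma6 peak, inside the neighbouring Prorp gene, was higher in repeat 2, at 16.7-fold and 30.2-fold. Psma4, the alpha3 gene, had a single shared peak of 22.2-fold and 12.2-fold, 283 bp downstream of its start site.

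The start-site peaks of the other alpha genes were weaker. Psma2, the alpha2 gene whose promoter is printed above, had 10.2-fold and 7.46-fold enrichment 135 bp upstream of its start site. Psma5, the alpha5 gene, had 12.6-fold and 5.89-fold 45 bp downstream. Both genes had a stronger shared peak elsewhere, at a neighbour. For Psma2 it was 46.9-fold and 20.01-fold inside AW209491, and for Psma5 it was 22.2-fold and 16.5-fold inside Sort1. Psma7, the alpha4 gene, had 30.4-fold and 22.4-fold at 1653 bp and 16.9-fold and 6.67-fold at 454 bp downstream of its start site. The peak counted for Psma1, which encodes alpha6, was 45.9-fold and 20.4-fold but lay 9796 bp away, 74 bp upstream of the start of Copb1, a coatomer gene.

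Of the catalytic beta genes, Psmb7 (trypsin-like site) had 6 shared peaks, the most of any member. The strongest, inside the gene, was 52.7-fold and 18.9-fold, a gap between repeats wider than the middle 95% of all matched peaks. Of the other 5, 3 lay inside the neighbouring Nek6. Psmb5 (chymotrypsin-like site) had a peak of 23.6-fold and 9.81-fold centred 95 bp upstream of its start site, with 105 tags (85.9 to 127) and 54 tags (40.6 to 70.5). The nearest shared peak to Psmb6 (caspase-like site) was 22.6-fold and 12.2-fold, 4813 bp away inside Gltpd2. A peak 295 bp outside Psmb6 was in the list of repeat 2 alone, at 12.6-fold with 41 tags.

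The other beta genes of the core carry no catalytic site. Psmb2, the beta4 gene, had 22.6-fold and 8.07-fold, with the summit 45 bp inside an end of the gene. Psmb3, the beta3 gene, had 4 shared peaks, of which the strongest, 26.1-fold and 10.99-fold, lay 272 bp upstream of the start of Pcgf2, a Polycomb gene. Psmb1, the beta6 gene, had the weakest strongest peak of the core genes, 10.2-fold and 7.85-fold. The beta7 gene Psmb4 had no shared peak. One peak of repeat 1, 4275 bp away, was 6.75-fold with 24 tags. Psma8, the testis form of alpha4, had 2 peaks of repeat 1 alone, 9.66-fold and 7.15-fold with 22 tags each.

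A shared peak lay within 10 kb of 17 of the 20 regulatory genes (85.0%), against 64.5% of all genes. A regulatory gene was the nearest gene of a shared peak in 15 of 20 cases (75.0%), against 55.4% of all genes. Their strongest peaks had medians of 16.3-fold and 11.4-fold, against 27.1-fold and 19.2-fold over all genes with a shared peak, and ranges of 6.74 to 118 and 4.32 to 91.0, which span those of the core genes. Within 1 kb the count was 10 of 20 (50.0%), against 51.5% of all genes.

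Psmd13, the lid subunit Rpn9, had the site with the best mean rank of all members, 118-fold and 91.0-fold, on chromosome 7 (140880763 to 140882900). It held 605 tags (558 to 655) and 542 tags (497 to 590), and 0.905% and 0.502% of shared peaks were stronger. Its summit lay 969 bp upstream of the Psmd13 start site but inside Sirt3, a mitochondrial deacetylase gene that runs the other way from a start 444 bp from the summit. Psmd8, the lid subunit Rpn12, had 81.2-fold and 73.0-fold, with 225 tags (197 to 256) and 268 tags (237 to 302). That peak was 5505 bp from Psmd8 and 35 bp upstream of the start of Spred3, an inhibitor of Ras signalling. At its own start site Psmd8 had a second shared peak, 185 bp upstream in the promoter printed above, of 27.4-fold and 18.8-fold.

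The remaining lid genes were lower. Psmd3 (Rpn3) had 35.5-fold and 23.9-fold inside the gene, and 18.9-fold and 11.4-fold 267 bp outside one end. Psmd14, the deubiquitinase Rpn11, had 16.3-fold and 5.89-fold inside Tbr1, a neural transcription factor gene. Psmd7 (Rpn8) had 7.72-fold and 11.4-fold, Psmd11 (Rpn6) 9.10-fold and 6.84-fold, and Psmd12 (Rpn5) 12.6-fold and 4.32-fold. No peak of either repeat lay within 10 kb of Psmd6 (Rpn7).

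Of the 6 ATPase genes of the base, 5 had a shared peak, with medians of 11.1-fold and 10.99-fold. Psmc5 (Rpt6) differed most between repeats of all members' sites: the peak 263 bp downstream of its start site was 39.6-fold with 105 tags in repeat 1 and 10.3-fold with 50 tags in repeat 2. By mean rank its strongest shared peak was another one, 21.7-fold and 18.4-fold, inside Smarcd2. Psmc3 (Rpt5) had 32.0-fold and 15.5-fold with the summit 86 bp inside an end of the gene. Psmc1 (Rpt2) had 11.1-fold and 8.63-fold at 497 bp, and Psmc4 (Rpt3) 8.70-fold and 6.67-fold at 282 bp from its start site. Psmc6 (Rpt4) had 8.64-fold and 10.99-fold at 8426 bp. Psmc2 (Rpt1) had no peak of either repeat.

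All 3 other base genes had a shared peak, none of them within 1 kb. Psmd1 (Rpn2) had 52.9-fold and 25.1-fold at 5115 bp beyond its end, with 152 and 99 tags. Upstream of Psmd1, 2 adjacent peaks of repeat 1, 19.5-fold and 12.3-fold, overlapped a single peak of repeat 2 of 25.9-fold. Psmd4, the ubiquitin receptor Rpn10, had 31.1-fold and 26.3-fold at 8096 bp. Psmd2 (Rpn1) had 6.74-fold and 11.4-fold. Of the regulators outside the 19S particle, Psme4 (the activator PA200) had 4 shared peaks, up to 18.4-fold and 13.8-fold, in and near a gene of 109 kb. Psmf1, the inhibitor PI31, had 13.0-fold and 5.77-fold. Psme3, the nuclear activator PA28 gamma, had 3 peaks in repeat 1, of which that at its start site was 18.8-fold with 56 tags, and 1 of 5.49-fold in repeat 2, and these did not overlap.

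Among the immune genes, Psmb9 and Psmb10 had strong sites within 10 kb, each nearest to another gene. The rest had weaker sites or none that was shared. A shared peak lay near 5 of 7 (71.4%, against 64.5% of all genes), but the immune gene was the nearest gene of a shared peak in 1 case of 7 (14.3%), against 55.4% of all genes. The immune genes are short, with a median length of 3.26 kb against 17.2 kb over all genes. Whether length bears on the nearest-gene count was not tested. Psmb9, which encodes beta1i, had 65.3-fold and 37.7-fold on chromosome 17 (34186920 to 34188328), with 343 tags (308 to 381) and 273 tags (242 to 307). This site lay between Psmb9 and Tap1, the peptide transporter gene that shares a bidirectional promoter with Psmb9. The summit of repeat 1 was 189 bp upstream of the Psmb9 start site and 37 bp upstream of that of Tap1, and the summit of repeat 2 was 158 bp upstream of the Psmb9 start. The CP2 pair capitalised in the Psmb9 promoter began 112 bp upstream.

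Psmb10, which encodes beta2i, had 73.9-fold and 51.0-fold, with 240 tags (211 to 272) and 189 tags (163 to 218). The summit was 4865 bp from Psmb10 inside Pskh1, a protein kinase gene. Inside Psmb10 itself a shared peak had 9.80-fold and 8.46-fold, with 38 and 47 tags. No shared peak lay within 10 kb of Psmb8, the beta5i gene, which neighbours Psmb9 on chromosome 17. This rests on the edge of the window: Psmb8 starts at 34198195, and the summit of the Psmb9 site, at 34187519, lay just beyond 10 kb from it. One peak of repeat 1 alone, 5049 bp from Psmb8, was 9.66-fold with 30 tags. Among the constitutive partners, the strongest peaks of Psmb5, Psmb6 and Psmb7 were 22.6 to 52.7-fold and 9.81 to 18.9-fold. The strongest peaks counted for Psmb9 and Psmb10 were above all 3 in both repeats, but were nearest to Tap1 and Pskh1, as that of Psmb6 was to Gltpd2. The peak inside Psmb10 was below the strongest peaks of all 3 in both repeats.

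The shared peaks counted for the other immune genes were nearer to neighbouring genes. Psme2, the beta subunit of the interferon-inducible 11S activator, had 21.4-fold and 16.5-fold at 433 bp upstream of its start site and 208 bp upstream of that of Rnf31, a ubiquitin ligase gene. Psme1, the alpha subunit of the same activator, had 20.5-fold and 7.86-fold at 8262 bp, nearest to Dcaf11. The peak of 7.40-fold between Psme1 and Psme2 was in repeat 1 alone. Psmb11, the thymus-specific beta5t gene, lies next to Psmb5, and its strongest peak was that at the Psmb5 start site, 7220 bp away. Psme2b, a short copy of Psme2, had a peak in repeat 1 alone, 7.55-fold with 36 tags. Reads from Psme2 and its copy may not be told apart.

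Psmg3, an assembly chaperone of the 20S core (PAC3), had the highest enrichment of any member in repeat 1, 128-fold and 81.6-fold, on chromosome 5 (139824226 to 139825505). It held 437 tags (397 to 480) and 357 tags (321 to 396) inside the gene, 2082 bp downstream of the start site, and Psmg3 was the nearest gene. A second shared peak at Psmg3 was 20.5-fold and 23.2-fold. Of the 7 assembly genes, 5 had a shared peak (71.4%), against 64.5% of all genes, and without Psmg3 their strongest peaks were 9.66 to 25.3-fold and 6.47 to 16.1-fold. Those were Psmd5 (25.3 and 16.1), Psmd9 (22.5 and 8.06), Psmg4 (12.6 and 8.87) and Psmg2 (9.66 and 6.47). Psmg1 had a peak in repeat 1 alone, 9.16-fold with 38 tags. Psmd10, the chaperone gankyrin on the X chromosome, had no peak of either repeat.

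Of the non-proteasome genes caught by the name rule, Psme3ip1 had 61.3-fold and 43.2-fold, 222 bp upstream of its start site and 7 bp from that of Rspry1. Psmc3ip had a peak of 6.12-fold with 33 tags in repeat 1 alone.

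The classes were farther apart in their shares at start sites than in the 10 kb window, a difference that was not tested. Start sites were known for 43 members, and 14 of them (32.6%) had a shared summit within 500 bp, against 20.7% of the protein-coding genes with a start site. Core genes had 7 of 11 (63.6%), of which 6 were alpha genes of the 7 with an entry. Regulatory genes had 4 of 17 (23.5%), immune genes 2 of 7 (28.6%) and assembly genes 0 of 6. Within 250 bp the count was 6 of 43, or 3 of 11 core genes, against 14.6% of genes with a start site. Start-site peaks of members had medians of 22.9-fold and 11.2-fold, against 18.4-fold and 11.8-fold over all 3516 shared peaks at start sites. Psmb1, Psmb2, Psmb7, Psmc3, Psmd3, Psmd7, Psma8 and Psmg2 have no entry in the table of start sites.

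**Figure D2:**
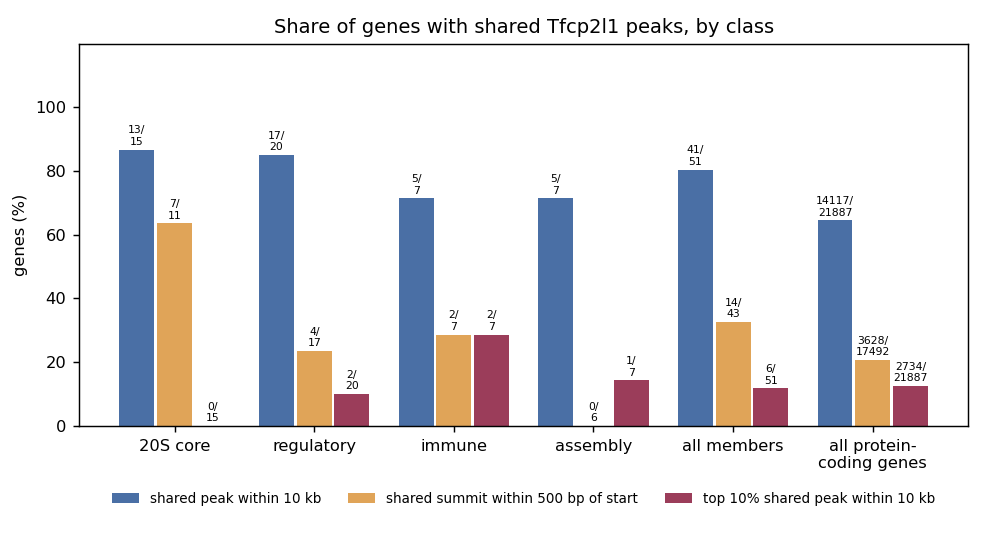
Share of genes (%) in each class and among all protein-coding genes with a shared peak in the gene or within 10 kb, with a shared summit within 500 bp of a start site (genes with a known start site), and with a shared peak in the top 10% of enrichment in both repeats. Bars start at 0 and the counts stand above them; core genes have the highest start-site share (7 of 11) and no peak in the top 10% (0 of 15).

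Some of the peaks in the members' windows were nearest to other genes. For the nearest genes of these peaks and the places of the strongest peaks, no share over all genes was computed. Those counts therefore describe the members and do not set them apart from other genes. The windows held 82 distinct shared peaks of repeat 1, which overlapped 81 of repeat 2. A member was the nearest gene of 49 of them, and another gene of 33, and 26 lay inside a member. The strongest peak of a member was at its own start site in 9 of 41 members, at the start site of another gene alone in 7, and at neither in 25. For immune genes, the strongest peak was nearest to another gene in all 5 cases. Of the 14 start-site peaks, 6 also lay within 500 bp of a start site on the opposite strand (42.9%), those of Mrpl32, Ss18l1, Tap1, Rnf31, Rspry1 and Ftsj3, against 5.77% of all shared peaks at start sites. Of the members' own start sites, 7 of 47 had a start site of the opposite strand within 500 bp (14.9%), against 7.88% of all.

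**Figure D3:**
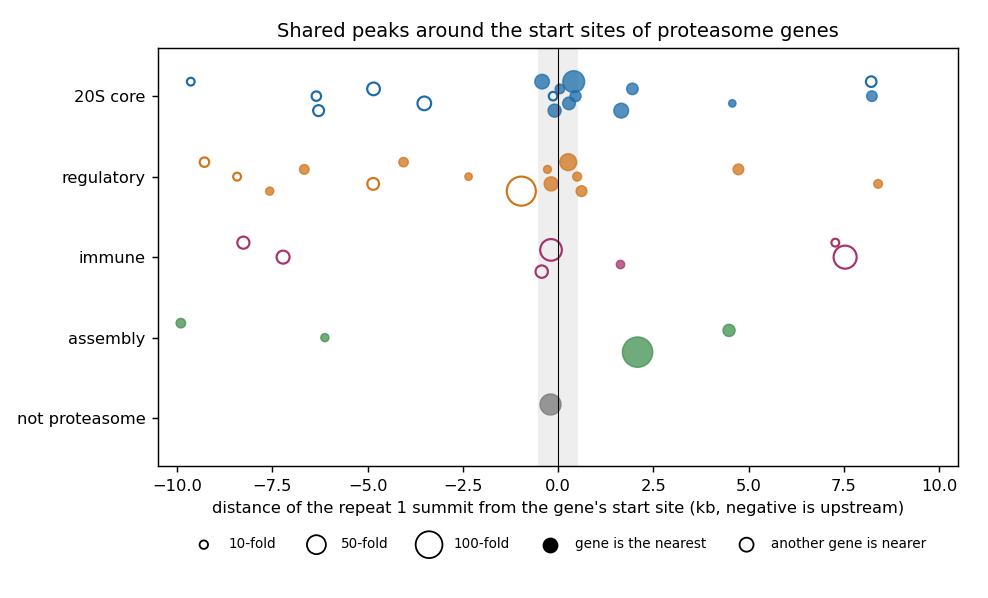
Distance in kb of the repeat 1 summit of each shared peak from the start site of its gene, for peaks within 10 kb of the start, by class; symbol area is proportional to the fold enrichment in repeat 1, and open symbols are peaks to which another gene is nearer. The grey band marks 500 bp to either side; the core row has 7 peaks in it and the assembly row none, and the largest symbols of the regulatory and immune rows are open.

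The 2 repeats ranked the members' sites alike in outline, with wide scatter at single sites. Across the 82 sites the Spearman correlation of fold enrichment was 0.712 and the Pearson correlation on the log2 scale 0.814, against 0.865 over the 41701 peaks with 1 partner each; the points of each pair share the genome position and come from the same 2 pairs of libraries. Repeat 1 was higher at 70 of 82 sites, a lean not particular to the members. Over all pairs the median ratio of repeat 1 to repeat 2 was 1.31, with the middle 95% between 0.656 and 2.75. Outside that range, which by its making holds 95% of the 41701 pairs, were 11 of the members' 82 sites. Among them were those of Psmc5, Psmb7 and Psmb2. Another was a Psmd1 site whose repeat 2 peak also overlapped a second peak of repeat 1, unlike the pairs that set the range. Tags per peak at the members were 19 to 605 and 20 to 542, with medians of 65.0 and 53.0. Summits of matched peaks were a median of 26.5 bp apart, against 28.0 bp over all pairs.

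**Figure D4:**
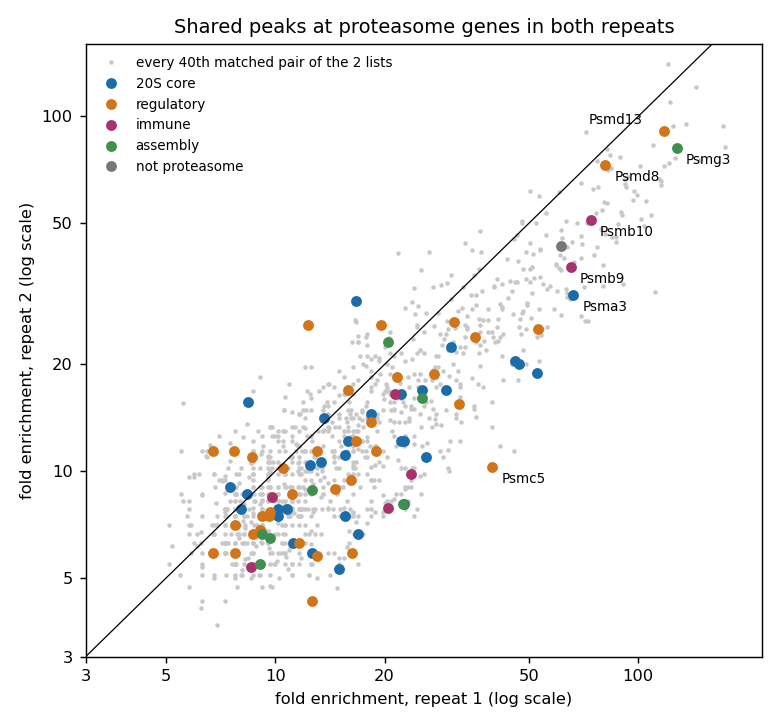
Fold enrichment of the 82 shared peaks at the members in repeat 1 (x axis) and repeat 2 (y axis), both log scales, coloured by class, over every 40th matched pair of the lists in grey; the line marks equal values. Most coloured points lie below the line (70 of 82), with Psmc5 (39.6 and 10.3) among the farthest from it. Over all matched pairs the median ratio of repeat 1 to repeat 2 was 1.31.

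Distinct peaks found in 1 repeat alone numbered 32 in the members' windows, 24 of repeat 1 and 8 of repeat 2. Over the whole lists, 76.1% of the repeat 1 peaks and 84.8% of the repeat 2 peaks were shared, so a lean to repeat 1 was general. The single-repeat peaks of the members were weak, at 5.49 to 18.8-fold with 19 to 56 tags, and the same was not computed over all genes. The highest was that at the Psme3 start site. Of all 21887 protein-coding genes, 1726 had peaks of a single repeat, 279 had peaks of both that did not overlap, and 5765 had none. Of the 51 members these were 6, 1 and 3.

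In the promoter windows, 6 of 47 member entries held a shared summit (12.8%), against 6.74% of all 32851 promoter entries. These 32851, the background of every share in this paragraph, are not limited to protein-coding genes, which have 21263 start sites among them. The CP2 pair was in 5 of 47 (10.6%), against 10.3% of all, and of those 5 promoters (Psmb9, Psmc2, Psmd11, Psme2b and Psme4) that of Psmb9 alone held a shared summit. Over all promoters, the pair was in 22.2% of those with a shared summit inside and in 9.40% of those without. The antioxidant response element was in 6 of 47 (12.8%), at Psmb5, Psmb6, Psmc6, Psmd9, Psmd12 and Psme4, against 12.4% of all. The CCAAT box was in 16 of 47 (34.0%), against 37.4%. The CP2 pair was in none of the 12 core promoters, too few to tell this from the 10.3% of all promoters. A looser pair, CNNG and CNNG with a gap of 6 bases, was in 10 of the 12 (83.3%), against 70.2% of all. The median GC content was 57.3% in the member promoters and 52.7% in all, and its part in the motif counts was not tested.

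Genes that work with the proteasome were counted in the same way. Of 16 partners and regulators, 13 had a shared peak (81.2%), against 64.5% of all genes. The highest were Nfe2l2, the oxidative stress factor, with 91.5-fold and 64.8-fold and 8 shared peaks, Ngly1, the glycanase that activates Nfe2l1, with 62.8-fold and 29.4-fold, and Nfe2l1 itself with 36.7-fold and 32.2-fold and 7 shared peaks. Akirin2, Ecpas and Fbxo7 had no shared peak. Of 11 genes of ubiquitin supply and shuttling, 7 had one (63.6%), among them Ubqln4 (73.5-fold and 33.6-fold) and Ubqln1 (51.7-fold and 42.9-fold).

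Class I antigen presentation, the pathway the immunoproteasome serves, had 7 of 12 (58.3%), below the 64.5% of all genes, led by Irf1 (56.2-fold and 54.5-fold), Tap1 (the Psmb9 site) and Pdia3 (44.3-fold and 39.2-fold). B2m, H2-K1, Tap2, Erap1 and Calr had no shared peak. Of 2 other multi-subunit complexes, the COP9 signalosome, whose core resembles the proteasome lid, had 9 of 10 (90.0%), led by Cops8 (60.1-fold and 44.7-fold). The chaperonin CCT had 8 of 9 (88.9%), led by Cct4 (80.2-fold and 51.0-fold). Both shares were above the 64.5% of all genes. With 10 and 9 genes, the lists are too short to rank against the 80.4% of the proteasome members.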

How the data were processed

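Tfcp2l1 ChIP-seq and input libraries of mouse embryonic stem cells were analysed from 2 peak lists, 1 per repeat. Per the file headers, the authors called peaks with MACS 1.4.1 for each ChIP library against its own input, at a p-value threshold of 1e-05, keeping at most 2 duplicate tags per position. The deposited count per peak gives its ChIP tags as whole numbers. Each peak also has a deposited score, which is the -log10 of the p-value times 10. The deposited fold enrichment is a ratio of summit tags to the background around the peak. The deposited FDR is in percent and reached 0.12%. CASAVA 1.8.2 is named in the submitters' processing notes. For the aligner, no name is given in the sources used here.

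Those notes name mm9, while the coordinates match GRCm38: the last peak on chromosome Y ends at 90.8 Mb, and 19.2% of GRCm38 start sites had a shared summit within 500 bp, against 3.02% when moved by 100000 bp. Genes and start sites came from RefSeq tables of GRCm38.p6. Exons and introns were not told apart. Strand and start sites were known only for genes in the promoter table. Open chromatin and expression were not analysed.

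Members and lists were chosen with earlier results of these data known. Named genes were the 10 members with the best mean rank, all immune genes and their constitutive partners, members without a shared peak, and up to 3 genes with a shared peak per list, plus nearer genes at members' sites. Other members are given so that all are accounted for, and list genes without a shared peak were named after their values were seen. Counts at start sites, strong peaks and opposite-strand start sites were added after seeing the data. Paaf1 had no match in the gene table, and 2 genes were left out of the lists and their counts and are not reported here. Pairing, overlap and window assignment were checked on simulated peaks. Python 3.11.15, pandas 2.3.3, numpy 2.4.6, scipy 1.17.1 and matplotlib 3.10.9 were used. Alternatives changed the window, the rule for shared peaks, the strength limits, the repeat used and the class boundaries. Tag intervals are exact 95% Poisson intervals.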

Additional observations from a re-analysis of the deposited data

How the results depend on the processing

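Of 110 alternative values, 86 stayed within 1.5 times the value reported. That limit takes no account of the share over all genes, which moved with most settings. The members with a shared peak numbered 27 within 1 kb (51.5% of all genes) and 32 within 5 kb (58.6%). At 10-fold or more in both repeats they numbered 24 (50.0%). Regulatory members numbered 10 within 1 kb, 8 at 10-fold and 11 at an FDR of at most 0.01% (48.9% of all genes). Immune members numbered 3 within 1 kb, 3 at 10-fold, 1 by nearest gene (55.4% of all genes) and 2 of 3 with Psmb8, Psmb9 and Psmb10 alone (64.5%). Assembly members numbered 2 within 1 kb, 3 within 5 kb (58.6% of all genes), 3 by nearest gene and 2 at 10-fold. The looser motif, CNNG and CNNG with a gap of 6 bases, was in 40 of 47 member promoters, against 70.2% of all 32851 promoter entries. The member promoters had the higher median GC content, as given above. Ranked by tags scaled by depth, 7 of the 10 strongest members were the same.

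The alternatives for start sites and strong peaks were chosen after seeing the data. Within 250 bp of a start site, the counts were 6 of 43 members, 3 core, 1 regulatory and 1 immune, against 14.6% of genes with a start site. Assembly members at a start site numbered 0 to 1 with either repeat left out. By nearest gene, a peak in the top 10% was counted for 2 of 51 members, with 0 regulatory and 0 immune, against 9.71% of all genes. In the top 20% of enrichment there were 9 of 51 members, with 1 core and 4 regulatory, against 22.5% of all genes. The cause of these changes was not tested, except that stricter limits leave fewer peaks.

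No paired analysis was possible because each input enters only through the authors' peak calls, so that no input library has a value of its own to pair with the tags of its ChIP library. Weak sites are limited by counting: peaks at the members held as few as 19 tags.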
